A study of Drosophila melanogaster with 8 samples.

Results

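The genes described here are the Cpr genes of the fly, which encode cuticular proteins with a Rebers-Riddiford domain. They were chosen by symbol, as all genes whose name starts with Cpr and a digit, and this gave 70 of the 17562 genes in the tables. A mean of 0.5 CPM (reads of a gene per 1000000 reads) or more over all libraries was reached by 16 of the 70. These 16 are described gene by gene, Cpr66D included, and the other 54 by counts and ranges.

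The insect cuticle is a layered matrix of chitin fibres and proteins, secreted on the outer face of the epidermis, the trachea, the foregut and the hindgut. The Rebers-Riddiford domain binds chitin, and the many proteins that carry it give the cuticle of each stage and body region its stiffness or flexibility. Most such genes are switched on for short windows around the moults and around adult emergence, under the control of ecdysone. A few have a known site of use in the adult. Cpr66D and Cpr72Ec encode proteins of the corneal lens of the eye, together with Crystallin and Retinin.

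Poly-A RNA was sequenced from thoraces of adult males, with 4 libraries of each genotype. REPTOR[ACT] flies carried tub-Gal80ts and dMef2-GAL4 together with UAS-REPTOR[ACT]. REPTOR is a transcription factor of the bZIP class that acts when the growth kinase complex TORC1 is inhibited, and this form of it acts without that signal. Control flies carried tub-Gal80ts and dMef2-GAL4 from a cross to w[1118] and had no UAS transgene. Both genotypes developed at 18 °C, where the temperature-sensitive GAL80 silences GAL4, were held for 3 to 4 days at 18 °C as adult males and were then kept for 4 days at 29 °C. The labels give these times and 5 to 6 thoraces per sample. The study's general methods instead give 4 to 5 further days at 18 °C and a wider range of thoraces per sample. The dMef2-GAL4 driver acts in muscle, whereas cuticle proteins are products of epidermal cells, and a thorax holds both tissues. Fewer cells of a type and less RNA per cell cannot be told apart in such bulk samples. The labels do not say whether replicates came from separate cultures, and p-values then measure the spread between these samples.

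Each library held 26.8 to 50.0 M (1000000) reads. Cpr genes drew 10519 to 15757 reads in the REPTOR[ACT] libraries and 8894 to 16150 in the control libraries, or 0.0317% to 0.0435% of all reads. REPTOR itself averaged 300 ± 28.4 CPM in REPTOR[ACT] and 106 ± 17.8 CPM in control (SD, n = 4 each), with no overlap. Epidermis markers summed to 571 to 612 CPM in REPTOR[ACT] and 587 to 665 CPM in control, with 0 of 11 tested members higher and 1 lower (grh). Muscle markers summed to 36436 to 39882 CPM in REPTOR[ACT] and 28354 to 30854 CPM in control, with 8 of 13 higher and 1 lower, where 24.8% of all genes tested were higher and 19.4% lower. Their part in the differences of the Cpr genes was not tested.

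One library, control replicate 1, stood apart in a way that touches the lens genes of the family. Mitochondrial genes drew 30.4% of its reads, against 38.7% to 42.2% in the other control libraries and 31.6% to 34.1% in REPTOR[ACT]. Cpr72Ec had 0.117, 0.173, 0 and 0.0288 CPM in REPTOR[ACT] and 3.05, 0.0835, 0.0761 and 0.0581 CPM in control, so that control replicate 1 was far above the other 7 libraries. It stood out in the same way for genes of photoreceptors. ninaE, the rhodopsin of the outer photoreceptors, was at 0.416 to 1.38 CPM in REPTOR[ACT] and at 151 CPM in control replicate 1. Arr2, an arrestin that quenches it, was at 0.173 to 0.329 CPM in REPTOR[ACT] and at 62.4, 0.2504, 0.342 and 0.232 CPM in control. Uro, a renal tubule gene, was at 0 to 0.0694 CPM in REPTOR[ACT] and at 9.59, 0, 0.0380 and 0 CPM in control. Cpr66D did not go along, being lower in control replicate 1 (8.76 CPM) than in the other control libraries. The remaining lens genes, Crys and retinin, summed to at most 0.0939 CPM in REPTOR[ACT] and at most 0.0626 CPM in control. Because of this library, each rise or fall called among the 16 expressed Cpr genes below is also given without it.

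**Figure D1:**
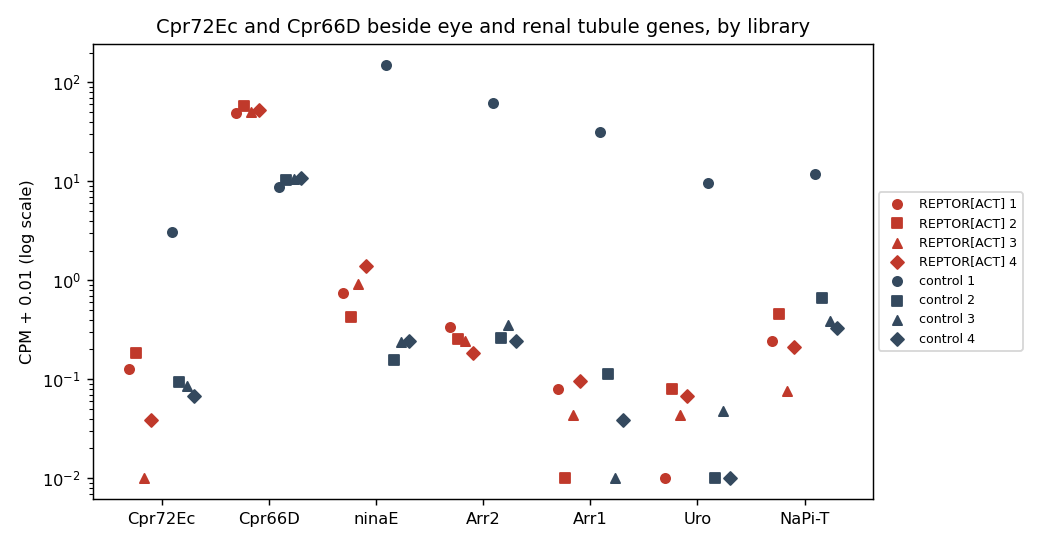
CPM plus 0.01, on a log axis, of Cpr72Ec, Cpr66D, the photoreceptor genes ninaE, Arr2 and Arr1 and the renal tubule genes Uro and NaPi-T. Each point is a library, red for REPTOR[ACT] and dark for control, with a marker shape for each replicate number. Control replicate 1 lies far above the other 7 libraries for all but Cpr66D, where the 4 REPTOR[ACT] libraries lie above all control libraries.

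Within the 16 expressed Cpr genes the genotypes differed in both directions. Of the 16 genes, 4 rose in REPTOR[ACT] (Cpr66D, Cpr76Bd, Cpr62Bc and Cpr100A), 5 fell (Cpr60D, Cpr47Ea, Cpr47Ef, Cpr97Eb and Cpr73D) and 7 did not pass the test. The test was edgeR's quasi-likelihood test with Benjamini-Hochberg adjustment over all 9903 genes tested, and a gene was called at an adjusted p under 0.05. All 16 lay above the filter on low counts (about 0.316 CPM) in every library of both genotypes. The called share was 56.2% of these 16 genes, against 44.2% of all genes tested. By direction it was 25% higher and 31.2% lower, against 24.8% and 19.4% of all genes. With the further limit of a log2 fold change beyond 1, which the study used, 4 of 16 (25%) were called, against 6.88% of all genes. The 4 libraries of one genotype lay wholly above or below those of the other for 8 of 16 genes (50%), against 41.9% of all genes. The median log2 fold change was -0.14, against -0.01 for all genes. With 16 genes these shares are counts of few members, and the members are described below one by one.

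**Figure D2:**
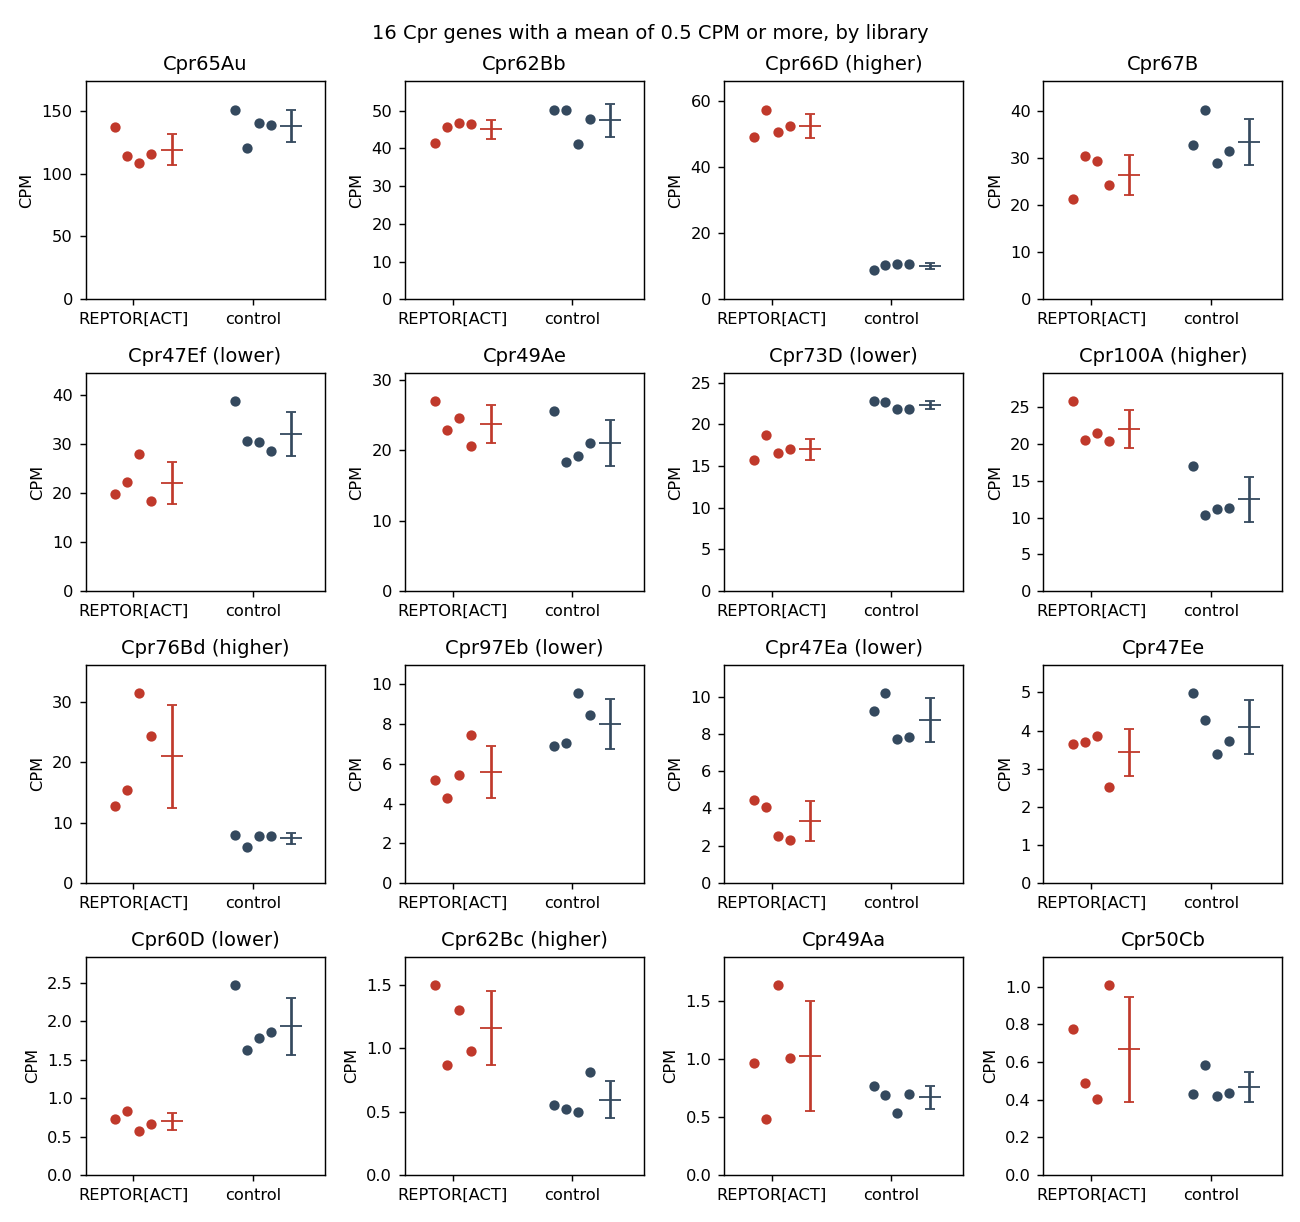
CPM of the 16 Cpr genes with a mean of 0.5 CPM or more, one panel a gene, with REPTOR[ACT] in red at the left and control in dark at the right. Points are libraries in the order of their replicate number, bars are the mean ± SD of 4 libraries, and the word after a name gives the direction of a call. Cpr66D, Cpr76Bd, Cpr100A and Cpr62Bc show no overlap with REPTOR[ACT] above, and Cpr47Ef, Cpr73D, Cpr47Ea and Cpr60D none with REPTOR[ACT] below.

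Cpr66D, the lens protein gene, showed the largest rise among the 16. It lies on chromosome arm 3L at 8640439 to 8643584 (plus strand, BDGP6 coordinates), has 1104 exon bases and shares none with another gene. Its level was 49.2, 57.4, 50.7 and 52.5 CPM in REPTOR[ACT] and 8.76, 10.2, 10.6 and 10.8 CPM in control. The genotypes were far apart, with a spread of 6.80% of the mean in REPTOR[ACT] and 9.15% in control. The log2 fold change was 2.38 ± 0.08 (SE), a 5.19-fold ratio of the means, with adjusted p = 5.56e-09 by edgeR, and 2.31 ± 0.08 without control replicate 1. Among the 16 genes ranked by CPM per kb of exon, Cpr66D stood in place 2 in REPTOR[ACT] (47.5 CPM per kb) and in place 7 in control (9.15 CPM per kb).

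Of 14 photoreceptor markers, a list added after control replicate 1 was seen to stand apart, 6 were tested. Of these, 1 was higher and 1 lower, where 24.8% of all genes tested were higher and 19.4% lower. Rh5, a rhodopsin, rose (2.90 ± 0.79 CPM in REPTOR[ACT] and 0.571 ± 0.238 CPM in control) and norpA, the phospholipase of phototransduction, fell (70.8 ± 2.42 CPM in REPTOR[ACT] and 109 ± 9.16 CPM in control). Without control replicate 1 their log2 fold changes were 2.62 for Rh5 and -0.58 for norpA, and both passed. The list then gave 2 higher and 1 lower, where 39.4% of all genes were called in either direction. This count may include ninaE, which lay below the filter on low counts in control replicates 2 to 4. norpA made up most of the photoreceptor sum in REPTOR[ACT] (75.6 to 80.1 CPM), far above ninaE and Arr2. Whether the norpA RNA came from eye tissue was not tested. Leaving control replicate 1 out, ninaE was at 0.416 to 1.38 CPM in REPTOR[ACT] and at 0.146, 0.228 and 0.232 CPM in control, given as values with no test because these control libraries lay below the filter on low counts. Crys and retinin were at or near 0 in every library. The part of eye tissue in the Cpr66D difference was not tested.

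Cpr76Bd rose next most. It has the most exon bases of the 16, with 4525, at 19532743 to 19538289 on 3L (plus strand). Its level was 12.8, 15.5, 31.5 and 24.3 CPM in REPTOR[ACT] and 8.001, 6.01, 7.87 and 7.75 CPM in control. All REPTOR[ACT] libraries were above all control libraries, but they spread widely among themselves, with replicates 3 and 4 above replicates 1 and 2 and an SD of 40.5% of the mean. On the log2 scale the rise was 1.51 ± 0.30 (edgeR adjusted p = 0.00442), and 1.55 ± 0.35 without control replicate 1 (edgeR adjusted p = 0.0123).

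Cpr100A had 25.8, 20.5, 21.5 and 20.4 CPM in REPTOR[ACT] and 17.0, 10.4, 11.2 and 11.3 CPM in control. The lowest REPTOR[ACT] library was above the highest control library, control replicate 1, which itself stood above the other 3. The gene lies on 3R at 30867521 to 30869184 (plus strand). Its log2 fold change was 0.83 ± 0.15 (edgeR adjusted p = 0.00172), and 1.01 ± 0.10 without control replicate 1 (edgeR adjusted p = 2.66e-05). Of the 17 alternative fits, that one put it past the limit of 1.

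Cpr62Bc rose from few reads. Its level was 1.502, 0.867, 1.30 and 0.980 CPM in REPTOR[ACT] and 0.550, 0.522, 0.494 and 0.813 CPM in control, on 162 reads in all REPTOR[ACT] libraries and 84 in all control libraries. The genotypes did not overlap, though the gap between the closest libraries was small. The rise was 0.97 ± 0.24 on the log2 scale (edgeR adjusted p = 0.00689), and 0.94 ± 0.28 without control replicate 1 (edgeR adjusted p = 0.0209). It passed the limit of 1 without REPTOR[ACT] replicate 2 or 4, without control replicate 4 (1.10, 1.05 and 1.17) and with plain library totals.

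The largest falls were those of Cpr60D and Cpr47Ea, both on 2R. Cpr60D had 0.727, 0.833, 0.568 and 0.663 CPM in REPTOR[ACT] and 2.47, 1.63, 1.79 and 1.86 CPM in control. These are few reads, 95 in all REPTOR[ACT] libraries and 270 in all control libraries. Every REPTOR[ACT] library was below every control library. Its log2 fold change was -1.46 ± 0.20 (edgeR adjusted p = 9.57e-05), and -1.33 ± 0.19 without control replicate 1.

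Cpr47Ea had 4.46, 4.06, 2.51 and 2.33 CPM in REPTOR[ACT] and 9.22, 10.2, 7.72 and 7.81 CPM in control. Here too the genotypes did not overlap, and within both of them replicates 1 and 2 were above replicates 3 and 4. The log2 fold change was -1.38 ± 0.20 (edgeR adjusted p = 0.000385), and -1.36 ± 0.23 without control replicate 1. Its exons share 163 bases with Or47a on the other strand, which had at most 0.0611 CPM in any library.

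Cpr47Ef, in the same chromosomal group, had 19.8, 22.2, 27.9 and 18.3 CPM in REPTOR[ACT] and 38.7, 30.6, 30.3 and 28.5 CPM in control. The highest REPTOR[ACT] library and the lowest control library were close to each other, without crossing. Its log2 fold change was -0.54 ± 0.14 (edgeR adjusted p = 0.00991), and -0.44 ± 0.13 without control replicate 1 (edgeR adjusted p = 0.0223).

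Cpr73D had 15.7, 18.7, 16.5 and 17.0 CPM in REPTOR[ACT] and 22.8, 22.7, 21.8 and 21.9 CPM in control. The control libraries were nearly the same, with an SD of 2.25% of the mean, and all lay above REPTOR[ACT]. The log2 fold change was -0.39 ± 0.07 (edgeR adjusted p = 0.000691), and -0.39 ± 0.08 without control replicate 1. Cpr73D, at 16939100 to 16957689 on the minus strand of 3L, shares 294 exon bases with Ogdh on the other strand. Ogdh encodes a subunit of the oxoglutarate dehydrogenase complex, was at 1096 to 1242 CPM in REPTOR[ACT] and 3818 to 4114 CPM in control, and fell by 1.76 on the log2 scale. Whether counting used strand is not stated, so reads of Ogdh and Cpr73D in the shared bases cannot be told apart, and the fall of Cpr73D is uncertain for that reason.

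Cpr97Eb fell with overlap between the genotypes. It had 5.16, 4.30, 5.45 and 7.43 CPM in REPTOR[ACT] and 6.90, 7.05, 9.55 and 8.45 CPM in control, so REPTOR[ACT] replicate 4 stood above control replicates 1 and 2. This gave a log2 fold change of -0.51 ± 0.16 (edgeR adjusted p = 0.0290), and -0.57 ± 0.18 without control replicate 1. The call did not hold without REPTOR[ACT] replicate 1, 2 or 3 or without control replicate 3 or 4 (edgeR adjusted p = 0.0827, 0.0615, 0.0656, 0.0835 and 0.0768).

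**Figure D3:**
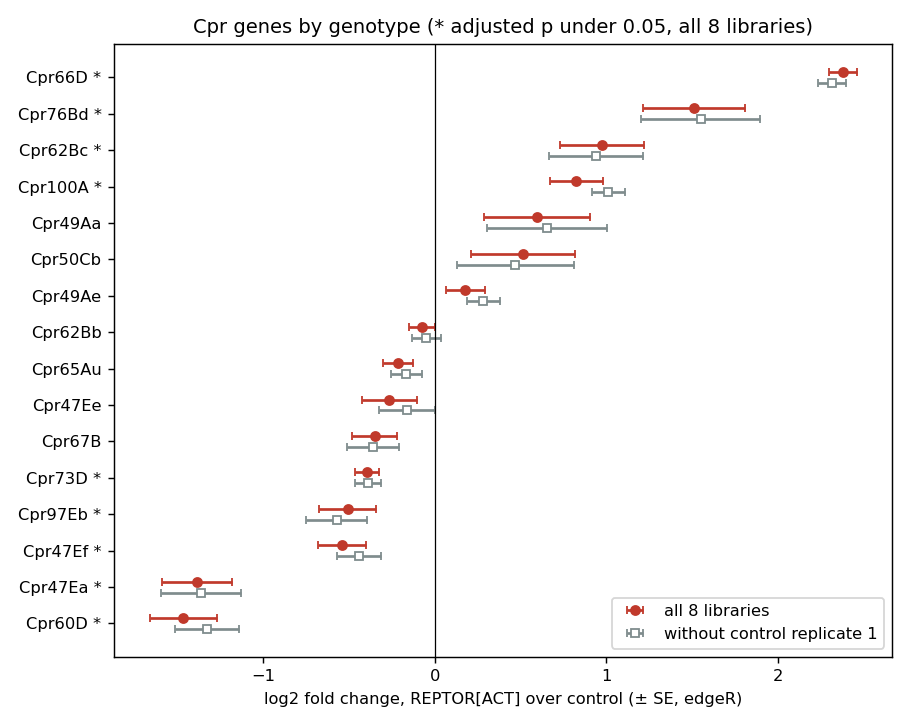
Log2 fold change of REPTOR[ACT] over control with its SE for the 16 Cpr genes, ordered by size. Red circles are the fit to all 8 libraries and open squares the fit without control replicate 1, and a star marks an adjusted p under 0.05 with all libraries. The values run from 2.38 for Cpr66D to -1.46 for Cpr60D, and every gene keeps its sign without control replicate 1.

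The 7 genes that did not pass the test include the most abundant members. Cpr65Au, at 6131242 to 6132109 on 3L (minus strand), had 137, 114, 109 and 116 CPM in REPTOR[ACT] and 151, 120, 140 and 139 CPM in control. The genotypes overlapped, while each REPTOR[ACT] library was below the control library of the same number in 4 of 4 pairs. The log2 fold change was -0.21 ± 0.09 (edgeR adjusted p = 0.0726), and with the replicate number as a block in the fit it passed (edgeR adjusted p = 0.00875). Without control replicate 1 the log2 fold change was -0.16 ± 0.09 (edgeR adjusted p = 0.185). Its exons share 491 bases with an antisense RNA, asRNA:CR46005, which had at most 0.375 CPM in any library.

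Cpr67B was close to the threshold as well. It had 21.2, 30.3, 29.2 and 24.3 CPM in REPTOR[ACT] and 32.7, 40.2, 28.8 and 31.4 CPM in control, overlapping through replicates 2 and 3 of REPTOR[ACT]. With a log2 fold change of -0.35 ± 0.13 (edgeR adjusted p = 0.0540), it was lower in 3 of 4 pairs, and it passed with the replicate block (edgeR adjusted p = 0.0170). Without control replicate 1 the log2 fold change was -0.36 ± 0.15 (edgeR adjusted p = 0.0903).

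Cpr62Bb was at 41.3 to 46.8 CPM in REPTOR[ACT] and 41.2 to 50.3 CPM in control, the steadiest of the abundant members (log2 fold change -0.08 ± 0.08, edgeR adjusted p = 0.444). Cpr49Ae was at 20.6 to 26.9 CPM in REPTOR[ACT] and 18.4 to 25.6 CPM in control (0.18 ± 0.11 on the log2 scale), and passed without control replicate 1 (0.28 ± 0.10, edgeR adjusted p = 0.0419). Cpr47Ee was at 2.51 to 3.84 CPM in REPTOR[ACT] and 3.38 to 4.98 CPM in control (log2 fold change -0.26 ± 0.16). The genotypes overlapped for all 3, least for Cpr47Ee.

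The remaining pair was near the limit of 0.5 CPM. Cpr49Aa had 0.962, 0.486, 1.64 and 1.01 CPM in REPTOR[ACT] and 0.763, 0.689, 0.532 and 0.697 CPM in control, with REPTOR[ACT] replicate 2 below all control libraries and the others above. Its log2 fold change was 0.60 ± 0.31 (edgeR adjusted p = 0.139), and it passed without REPTOR[ACT] replicate 2 (0.82, edgeR adjusted p = 0.0194). Cpr50Cb had 0.774, 0.486, 0.401 and 1.01 CPM in REPTOR[ACT] and 0.428, 0.584, 0.418 and 0.436 CPM in control, which overlap (log2 fold change 0.51 ± 0.30, edgeR adjusted p = 0.191).

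The summed level of all 70 Cpr genes was 358 to 377 CPM in REPTOR[ACT] and 337 to 387 CPM in control. The means were 368 ± 8.03 CPM in REPTOR[ACT] and 352 ± 23.5 CPM in control (SD, n = 4 each), and 340 ± 4.84 CPM in control without replicate 1. The genotypes overlapped because of control replicate 1, the highest of all libraries. Without Cpr66D the sum was 315 ± 10.1 CPM in REPTOR[ACT] and 342 ± 24.4 CPM in control, so the order of the means turned round. The ranges, 305.7 to 326.5 CPM in REPTOR[ACT] and 326.8 to 378.1 CPM in control, nearly touched without overlap. Leaving out control replicate 1 as well, the control mean was 330 ± 4.59 CPM. The make-up of the sum differed in each library. Cpr66D made up 13.3% to 15.7% of the Cpr sum in REPTOR[ACT] and 2.27% to 3.13% in control. Cpr65Au, Cpr62Bb and Cpr67B together made up 49.0% to 53.9% in REPTOR[ACT] and 60.5% to 63.0% in control.

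**Figure D4:**
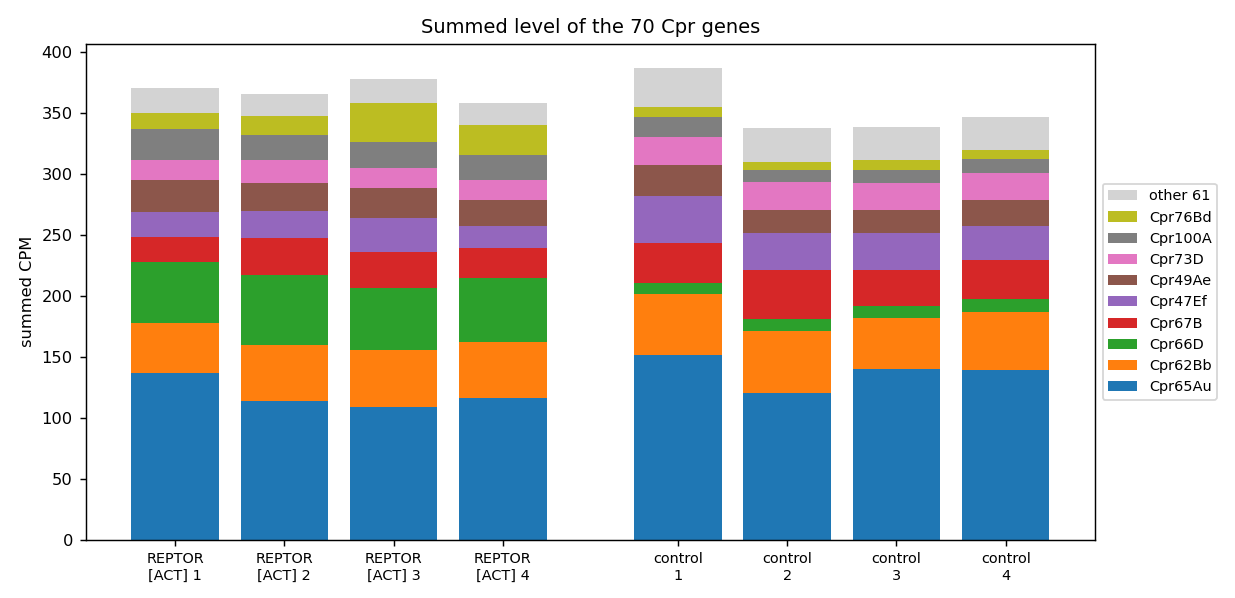
Summed CPM of the 70 Cpr genes in each library, REPTOR[ACT] at the left and control at the right, stacked by gene with the 9 most abundant genes in colour and the other 61 in grey. The bars have a similar height, from 337 to 387 CPM, and the green Cpr66D segment is wider in all 4 REPTOR[ACT] libraries.

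Levels between genes were compared as CPM per kb of exon, since the 16 genes span 526 to 4525 exon bases. Cpr65Au led in both genotypes, with 226 CPM per kb in REPTOR[ACT] and 262 CPM per kb in control. Cpr62Bb followed in control (45.4 CPM per kb in REPTOR[ACT], 47.8 in control) and Cpr67B came after it (26.004 CPM per kb in REPTOR[ACT], 33.0 in control). At the low end, Cpr62Bc had 1.03 CPM per kb in REPTOR[ACT] and 0.524 in control. Cpr66D and Cpr100A were far apart in REPTOR[ACT], with 47.5 and 16.01 CPM per kb, and next to each other in control, with 9.15 and 9.06 CPM per kb, closer than their spread.

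Many of the 70 genes are neighbours on the chromosome. With a gap of less than 20 kb between neighbours, 49 genes fell into 12 groups and 21 stood alone. Of the 16 expressed genes, 11 lay in such groups and 5 did not, and the arms 2R and 3L held 7 each. The expressed genes were few in each group, and often 1 gene carried nearly all of the level. Cpr65Au made up 99.99% of the mean CPM of its group of 7 genes, 3 of which had no read at all. Cpr49Ae made up 95.05% of its group of 8, Cpr76Bd 96.8% of its group of 4, and Cpr62Bb 98.0% of its group of 3.

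Not all expressed genes of a group passed the test. In the Cpr47E group, Cpr47Ea and Cpr47Ef fell and Cpr47Ee, which lies 0.059 kb from Cpr47Ef, did not pass (log2 fold change -0.26), while the other 4 genes had at most 0.0639 CPM as a mean of either genotype. In the Cpr62B group, Cpr62Bc rose and Cpr62Bb, 5.12 kb away and far more abundant, did not pass. In the Cpr76B group, Cpr76Bd rose and Cpr76Bc, 5.47 kb away, had a log2 fold change of 0.36 ± 0.27 (edgeR adjusted p = 0.301). Whether neighbours differ from each other in their change was not tested.

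**Figure D5:**
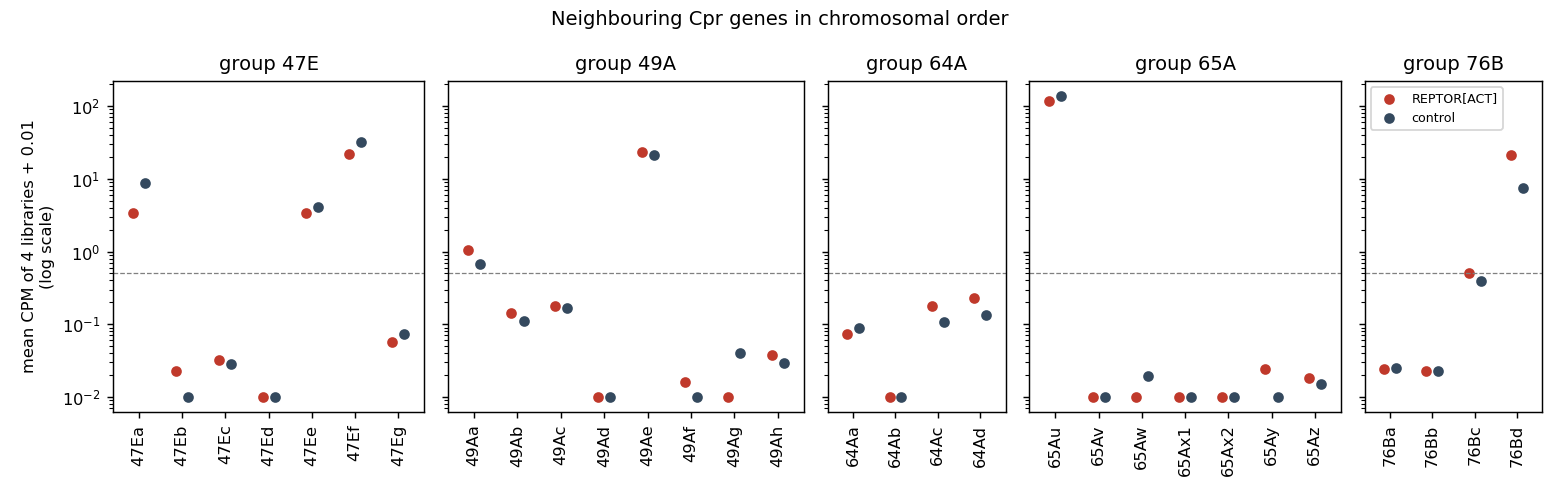
Mean CPM of 4 libraries plus 0.01, on a log axis, for the 5 groups of at least 4 neighbouring Cpr genes, in chromosomal order from left to right. Red points are REPTOR[ACT], dark points control, and the dashed line is the limit of 0.5 CPM. In the 65A and 49A groups 1 abundant gene sits among genes at or near 0, and in the 64A group no gene reaches the limit.

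Of the 54 genes below 0.5 CPM, 10 had no read in any library, which at these depths allows up to 0.0600 to 0.112 CPM per library (3 reads, counting error only). Another 23 had 1 to 10 reads over all 8 libraries. Only 3 of the 54 had enough reads to be tested. Just inside the limit of 0.5 CPM was Cpr50Cb with a mean of 0.567 CPM, and just outside were Cpr72Ec with 0.449 CPM, nearly all from control replicate 1, and Cpr76Bc with 0.444 CPM. Of the genes not tested, none other than Cpr72Ec had a mean above 0.172 CPM. A few pairs are near-identical copies (Cpr65Ax1 and Cpr65Ax2, Cpr67Fa1 and Cpr67Fa2), so that their reads may have been divided or lost in counting. Cpr57A, with no read, shares all of its 1488 exon bases with Obp57d, which had none either.

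The 3 genes below the limit that were tested were Cpr76Bc, Cpr92F and Cpr51A. Cpr51A, named after its values were seen, passed the filter on low counts through the control libraries alone and is given by its values. Cpr51A had 0.0469, 0.173, 0.201 and 0.0288 CPM in REPTOR[ACT] and 1.01, 0.689, 0.571 and 0.552 CPM in control. This is 14 reads in all REPTOR[ACT] libraries and 100 reads in all control libraries, with no overlap. Cpr92F had a log2 fold change of 0.62 ± 0.36 (edgeR adjusted p = 0.186).

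The cuticle genes outside the family were described from lists. Their counts stand beside 24.8% risen and 19.4% fallen among all genes tested. Of 27 other genes with the same domain, such as the larval cuticle proteins and resilin, 1 had enough reads to be tested (Lcp65Ag2) and it did not pass. Of 39 genes of the Tweedle, Vajk and obstructor kinds, 8 were tested, 2 fell and none rose. These were TwdlG (7.37 ± 0.97 CPM in REPTOR[ACT] and 9.27 ± 0.49 CPM in control) and obst-A, a chitin-binding matrix protein (10.1 ± 1.11 CPM in REPTOR[ACT] and 14.7 ± 2.75 CPM in control). The medians of the log2 fold changes were -0.14 for this list and -0.01 for all genes.

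Genes of chitin synthesis, matrix and turnover numbered 31 tested, with 4 higher and 6 lower (3 and 4 without control replicate 1) and a median of -0.08. Among all genes tested, 24.8% were higher and 19.4% lower. Cht10, a chitinase, rose (6.56 ± 0.49 CPM in REPTOR[ACT] and 3.59 ± 0.80 CPM in control), as did nst, an enzyme on the way to the chitin precursor (15.8 ± 1.04 CPM in REPTOR[ACT] and 12.1 ± 1.07 CPM in control). Cht2, another chitinase, fell (1.37 ± 0.25 CPM in REPTOR[ACT] and 2.50 ± 0.31 CPM in control) and so did the chitin deacetylase Cda4 (1.503 ± 0.19 CPM in REPTOR[ACT] and 2.56 ± 0.41 CPM in control). The chitin synthase kkv was at 0.867 to 1.37 CPM in REPTOR[ACT] and 0.897 to 1.86 CPM in control and did not pass (edgeR adjusted p = 0.275).

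Of all genes tested, 24.8% were higher and 19.4% lower. Genes of tanning and pigment gave 2 higher and 3 lower of 19 tested, with and without control replicate 1, with a median of -0.09. Those with the smallest adjusted p were yellow-b (25.5 ± 3.13 CPM in REPTOR[ACT] and 15.96 ± 0.78 CPM in control), PPO2, a phenoloxidase of blood cells (52.9 ± 3.90 CPM in REPTOR[ACT] and 81.1 ± 8.11 CPM in control), PPO3 and Ddc, the dopa decarboxylase (52.0 ± 5.22 CPM in REPTOR[ACT] and 71.4 ± 3.87 CPM in control). PPO3 had 1.17 ± 0.18 CPM in REPTOR[ACT] and 0.285 ± 0.124 CPM in control, where 2 of 4 libraries lay below the filter on low counts. The tyrosine hydroxylase ple was at 94.0 to 120 CPM in REPTOR[ACT] and 65.8 to 191 CPM in control, the highest in control replicate 1, and did not pass (edgeR adjusted p = 0.804).

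Of 20 tested genes of the moulting hormone response, 2 rose and 8 fell (1 and 8 without control replicate 1), where 24.8% of all genes rose and 19.4% fell. The median was -0.24, against -0.01 for all genes. Eip74EF, an ecdysone-induced factor, rose (34.9 ± 2.55 CPM in REPTOR[ACT] and 19.9 ± 0.99 CPM in control). The juvenile hormone receptors Met (27.7 ± 0.89 CPM in REPTOR[ACT] and 40.5 ± 2.63 CPM in control) and gce (55.3 ± 5.29 CPM in REPTOR[ACT] and 81.2 ± 4.06 CPM in control) fell, and so did the nuclear receptor Eip78C (9.27 ± 0.72 CPM in REPTOR[ACT] and 12.4 ± 0.27 CPM in control). EcR, the ecdysone receptor, fell as well (35.6 ± 3.24 CPM in REPTOR[ACT] and 43.4 ± 1.59 CPM in control). The 14 genes given here as risen or fallen in these lists, PPO3 aside, were called the same way without control replicate 1. Over the 5 lists 27 of 79 tested genes (34.2%) were called, against 44.2% of all genes, and 23 without control replicate 1, against 39.4% of all genes.

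Markers of other cell types that a thorax holds came in short lists, where 24.8% of all genes tested were higher and 19.4% lower. Trachea and fat body markers gave none of 6 and none of 5 tested, tendon cell markers 1 higher of 6, haemocyte markers 1 higher and 1 lower of 9, neuron markers 1 lower of 8, glia markers 2 higher and 1 lower of 6, and midgut markers none of 3. Without control replicate 1, fat body markers gave 1 higher and 1 lower, neuron markers none, and glia markers 1 higher and 1 lower. Of the renal tubule markers, a list added with the photoreceptor list, none of 4 passed. Epidermal genes were among the detected ones, with dpy at 280 CPM and pio at 94.9 CPM as means over all libraries, whereas sha, dy and nyo were below 0.1 CPM.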

How the data were processed

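Poly-A RNA of thoraces was profiled in 4 REPTOR[ACT] and 4 control libraries, grouped by their labels. Per the study's methods, libraries made with the KAPA mRNA HyperPrep workflow were split into 4 pools, sequenced as single reads, aligned with STAR to the FlyBase genome and tested with DESeq2. The labels instead name a TruSeq kit and mm10, a mouse build that cannot be the genome of fly reads. Not given in the sources used here are the counting tool, its use of strand and its treatment of reads with several matches. The value deposited by the authors is an unscaled expected count for each gene. All values were multiples of 0.25 (within 1e-06) and were multiplied by 4 to give whole reads. One row that names no gene, with 0 reads, was left out.

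Genes passing filterByExpr (9903) were fitted with edgeR 4.0.16 (TMM factors, robust quasi-likelihood, genotype as the one term) in R 4.3.3, with Benjamini-Hochberg adjustment. CPM are TMM-scaled, means carry SDs and log2 fold changes SEs derived from the F statistic. Alternatives used DESeq2 1.42.0, limma 3.58.1, other scalings and filters, rounded deposited values, a replicate block and each library left out. Same-numbered libraries deviated together (correlations 0.138, 0.433, 0.220 and 0.137, each above the limit of 0.1 set for pairing), although the labels do not say what they share. The highest correlations with another number were 0.0106, 0.0693, 0.168 and 0.221, for replicate 4 above that with its own. The main fit holds no block, and the fit with pairs is an alternative. No 2 libraries of a genotype were copies (20.4 to 148 times the chi-square of counting error). The highest of these values, 77.5 to 148, were those of control replicate 1 with the other control libraries.

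Cpr genes were matched by symbol and identifier to the Ensembl annotation of BDGP6.54 (70 of 70), which gave coordinates and exon bases. Tables were read with Python 3.11.15. The members and gene lists were chosen with earlier results of these data known. Named genes are the 16 Cpr genes, and from each other list up to 4 called genes with the smallest adjusted p and those that define it. Of the listed symbols, AANAT1 was not matched. Sequences were not used here.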

Additional observations from a re-analysis of the deposited data

Results flagged for a closer look

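Among 34 groups of 4 libraries, those of the 16 expressed Cpr genes and of the Cpr sum, 4 had 1 library farther from the others than Dixon's 95% limit allows, where chance alone gives about 1.7. In control replicate 1, Cpr100A was at 17.0 CPM, above the nearest control library at 11.3 CPM. In control replicate 2, Cpr76Bd was at 6.01 CPM, below the nearest at 7.75 CPM, and Cpr50Cb was at 0.584 CPM, above the nearest at 0.436 CPM. In REPTOR[ACT] replicate 4, Cpr47Ee was at 2.51 CPM, below the nearest at 3.64 CPM. Cpr72Ec and the photoreceptor sum were looked at because control replicate 1 had been seen to stand apart, so they are not counted above. In that library Cpr72Ec was at 3.05 CPM, with the nearest control library at 0.0835 CPM, and photoreceptor markers summed to 440 CPM, with the nearest at 116 CPM.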

How the results depend on the processing

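The count of 9 called Cpr genes was 8 to 11 under all alternatives. Over these, the share called of all genes tested ran from 28.9% (no filter on low counts) to 52.8% (replicate block). Without control replicate 1 the count was 10, where 39.4% of all genes were called. The replicate block gave 11 (4 higher, 7 lower), adding Cpr65Au and Cpr67B, while the share called of all genes was 52.8% with it and 44.2% without, and changed no other call among the 16 genes. The count with a log2 fold change beyond 1 was 4 or 5. The median log2 fold change of -0.14 was -0.26 with a mean of 1 CPM or more required and -0.26 with deposited values rounded, since both leave 13 of the 16 genes, and ran from -0.16 to -0.10 with a library left out. The log2 ratio of the summed Cpr CPM was 0.06, against -0.12 without Cpr66D, a setting chosen after seeing the data, and 0.04 to 0.11 with a library left out. The number of genes with a mean of 0.5 CPM or more was 13 at a limit of 1 CPM, 20 at 0.25 CPM and 19 with either genotype counted. Over 17 alternatives, 311 comparisons of the 19 tested Cpr genes gave no change of sign. The 15 comparisons of Cpr51A do not bear on this, since it passed the filter on low counts through the control libraries alone. In 5 of the 311 a call was lost (all Cpr97Eb), and in 14 one was gained. Cpr67B accounts for 9 of these, among them RLE factors (edgeR adjusted p = 0.0466) and DESeq2 (adjusted p = 0.0243). Cpr62Bc, Cpr49Aa and Cpr50Cb rest on 68 to 162 reads per genotype, and Cpr60D on 95 in REPTOR[ACT] and 270 in control. Of the 70 genes, 51 were too sparse to test.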
